A study of Mus musculus with 12 samples.

Results

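Both fractions compared here were CD206+ CNS-associated macrophages (CAMs) of the subdural compartment (sdCAMs), sorted from BLZ945-treated mice as tdT- and tdT+ cells. Of the 12 libraries of the series, 8 were used for the comparison, 4 tdT- and 4 tdT+, and the 2 fractions of a mouse carry the same mouse label (F1, F2, M1 or M2). Of 56735 gene names in the table, 13724 had at least 10 counts in at least 4 of the 12 libraries and are described below.

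All mice were Mrc1CreERT2/CreERT2:R26tdT/tdT, with both Mrc1 alleles driving CreERT2, a Cre that acts only under tamoxifen, and both Rosa26 alleles holding tdTomato (tdT), which Cre switches on. Mrc1 encodes CD206, so cells that expressed it when tamoxifen was given, and their progeny, carry the reporter. BLZ945, which enters the brain and blocks CSF-1 receptor signalling, was started 4 weeks after tamoxifen at 200 mg/kg daily for 7 days, and cells were sorted 8 weeks after its end from brain without choroid plexuses. The 4 vehicle libraries, tdT+ cells of other mice of the same genotype and timing, are given beside the values as a reference. They entered the count filter, the size factors of the printed counts and an alternative fit, but none of the tests behind the calls. The labels do not give the recombination rate, so a tdT- cell is either a cell that entered the CD206+ compartment after labelling or a resident cell that escaped recombination, and both fractions of a mouse went through the same depletion.

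Border macrophages line the blood vessels and meninges of the brain. They are long-lived, depend on CSF-1 receptor signalling, and carry receptors that take up proteins, lipids and dying cells from the surrounding fluid. After depletion their niche can be refilled by surviving cells that divide or by blood monocytes that enter and differentiate, and monocyte-derived macrophages in many tissues differ from long-term residents in antigen presentation and scavenging.

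Total counts lay between 19969308 and 22879495 in the 8 libraries. The reporter gave no check of the sort, since the tdTomato entry of the table held 0 counts in every library. The defining markers of border macrophages were expressed in both fractions, with a summed level of 109481 to 120679 TPM (a length-scaled level, computed from counts and exon length) in tdT+ and 72952 to 94322 in tdT- cells, and 9 of the 12 were lower by DESeq2. Mrc1 itself was at 8579, 8004, 12341 and 9918 normalized counts in the tdT+ and 3882, 3738, 2232 and 3421 in the tdT- libraries of F1, F2, M1 and M2, the order used for all values below. The tdT- library of F2 stood apart. Its neutrophil markers summed to 67350.3 TPM against at most 4.93 in the other tdT- libraries, and its red blood cell markers to 5716 TPM against at most 16 in the other tdT- libraries. Red blood cell markers were at 2602, 2716, 201 and 71.7 TPM in the tdT+ libraries. Without F2, DESeq2 called 676 genes higher and 1150 lower over all genes, against 405 and 584 with all mice. Counts of calls for a list without F2 are to be read against that rise. Microglia markers were higher in tdT- cells of every mouse, at 8678, 8075, 14714 and 11392 TPM against 7103, 7256, 7209.9 and 7256 in tdT+ cells, and 6 of the 7 passed the DESeq2 test. The mast cell markers were at 0 in all tdT+ libraries, and T and NK cell markers summed to at most 7.14 TPM in the tdT- libraries other than F2. In bulk RNA, a different mix of cell types and a different amount of RNA per cell cannot be told apart.

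With the mouse as a block, the fractions differed in 989 genes by DESeq2, 83 of them stable as defined below. By DESeq2 adjusted p, 405 genes (3.2% of 12659 with an adjusted p) were higher and 584 (4.61%) lower in tdT- cells. When the shrunken log2 fold change also had to reach 1 in either direction, which defines a DEG here, 208 genes were higher (1.64%) and 165 lower (1.3%). The quasi-likelihood test of edgeR, with the same block, called far fewer, 44 genes higher (0.321% of 13724) and 42 lower (0.306%). In simulated data DESeq2 made many more false calls than edgeR. Those data took their spread between libraries from edgeR's own estimate and held no mouse effect and no library that stood apart. They therefore cannot rank the tools for the real data. Calls by DESeq2 alone can include false ones. The 4 values of one fraction all lay above the 4 of the other for 626 genes higher in tdT- cells (4.56%) and 657 lower (4.79%).

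To set apart the calls that do not rest on 1 tool or 1 mouse, a stable call was required to pass both tests at an adjusted p of at most 0.05, to pass DESeq2 again without each mouse in turn with a fold change moved by at most 1.5 times, and to have the same direction within all 4 mice. This left 42 genes higher (0.332%) and 41 lower (0.324%) in tdT- cells, and the 2 fractions did not overlap in any of the 83. Their unshrunken log2 fold changes ran from 0.85 to 3.89 upward and from 0.75 to 5.23 in size downward, whereas the median over all genes was -0.07. In edgeR with 1 mouse left out, between 9 and 18 of the 83 kept an adjusted p of at most 0.05. The words higher and lower without further qualification are used below for stable calls, and a gene called by DESeq2 alone is said to be so, with its edgeR value. Those genes are examples chosen after their values were seen. Counts of DESeq2 calls in a gene list are to be read against the shares over all genes, 3.2% higher and 4.61% lower. A count alone is no result about a list.

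**Figure D1:**
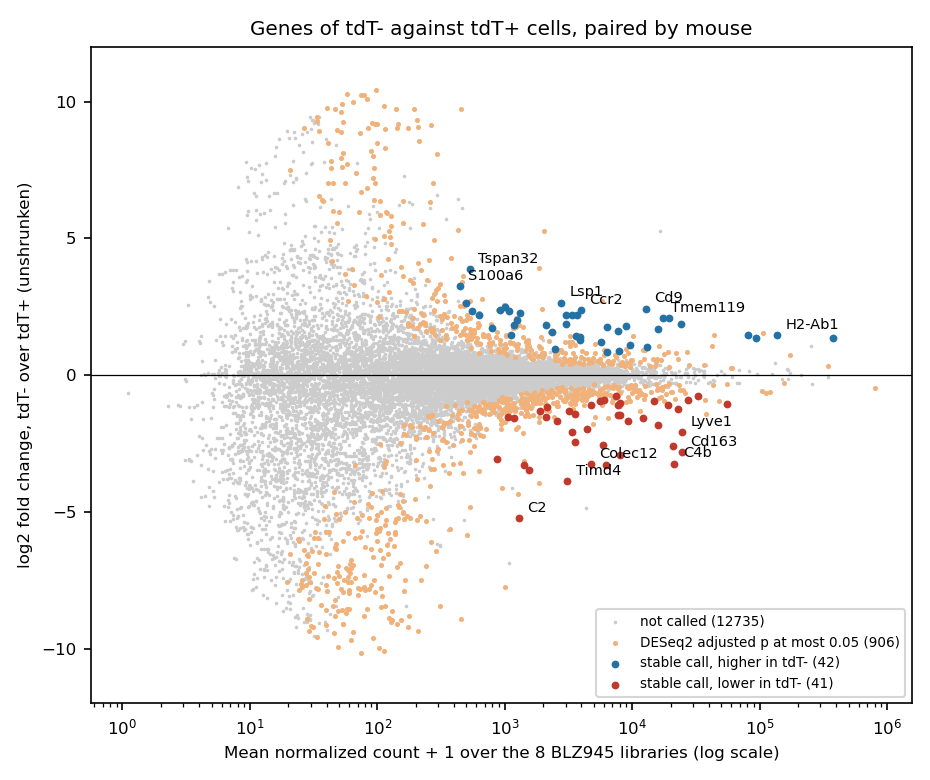
Unshrunken log2 fold change of tdT- over tdT+ cells (vertical) against the mean normalized count plus 1 over the 8 BLZ945 libraries (horizontal, log scale), 1 point per gene. The stable calls sit among the well-expressed genes, whereas most DESeq2 calls with very large fold changes lie toward low counts.

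The stable call with the largest fold downward was a complement gene. C2, the serine protease of the classical and lectin complement pathways, was at 2563, 1970.5, 2925 and 2616 normalized counts in tdT+ and 25, 75.3, 71.7 and 128 in tdT- libraries. The fractions did not overlap, and F1 was the lowest tdT- library. The log2 fold change of C2 was -5.23 ± 0.41 (SE), with adjusted p = 1.07e-33 in DESeq2 and 0.0113 in edgeR. C4b, the complement component that C2 pairs with in the C3 convertase, was at 34298, 38476, 40936 and 41177 in tdT+ and 5614, 2904, 3931 and 4459 in tdT- cells. Its log2 fold change was -3.23 ± 0.18, with adjusted p = 1.08e-72 in DESeq2 and 0.00485 in edgeR. The vehicle libraries held 1807 to 2251 counts of C2 and 28584 to 41444 of C4b, above every tdT- library.

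Of 26 complement genes tested, 10 were lower and 2 higher by DESeq2, and 3 were stable, all lower. The DESeq2-only calls include the anaphylatoxin receptors C5ar1 (log2 fold change -0.80, edgeR adjusted p = 0.091) and C3ar1 (log2 fold change -0.34, edgeR adjusted p = 0.297), properdin (Cfp, log2 fold change -0.73, edgeR adjusted p = 0.0936) and the convertase inhibitor Cd55 (log2 fold change -4.11, edgeR adjusted p = 0.108). Higher by DESeq2 alone were the complement receptor subunits Itgb2 (log2 fold change 0.48, edgeR adjusted p = 0.131) and Itgax (log2 fold change 7.01, edgeR adjusted p = 0.354). Itgax, which encodes CD11c, an integrin alpha chain, was at 42.3, 17.5, 0 and 0 counts in tdT+ and 114, 522, 1166 and 299 in tdT- cells, without overlap. M1 was the highest tdT- library. Since the tdT+ libraries of M1 and M2 held 0 counts, the size of the fitted fold change of Itgax is imprecise.

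Several scavenger receptors, which internalize modified lipoproteins, haemoglobin complexes and matrix fragments, were lower as well. Of 16 tested, 6 were lower by DESeq2 and 0 higher, 3 were stable, and 14 had a fold change below 0. The median log2 fold change of the list was -0.56, and that of all genes -0.07. Colec12, a collectin-type scavenger receptor, was at 6149.7, 8576, 9322 and 10532 counts in tdT+ and 704, 894, 909 and 1091 in tdT- cells, a 9.56-fold difference. Of all stable genes it had the smallest DESeq2 adjusted p (adjusted p = 1.27e-149 in DESeq2 and 0.001 in edgeR), and its log2 fold change was -3.26 ± 0.12. Cd163, the receptor for haemoglobin bound to haptoglobin, was at 42381, 39633, 51519 and 37376 in tdT+ and 6294, 5429, 5783 and 6846 in tdT- libraries, with a log2 fold change of -2.81 ± 0.13 and adjusted p = 7.63e-99 in DESeq2 and 0.00236 in edgeR. The 4 tdT- values of Cd163 lay within 5429 and 6846, and no tdT+ library came below 37376. Lyve1, a hyaluronan receptor of perivascular and meningeal macrophages, was at 34029.8, 35227, 46167 and 42944 in tdT+ and 9504, 5912, 11303 and 11834 in tdT- cells (log2 fold change -2.08 ± 0.14, adjusted p = 4.65e-45 in DESeq2 and 0.00783 in edgeR). For Lyve1 the vehicle libraries, at 12094 to 21081, lay between the 2 fractions. Stab1 (log2 fold change -1.42, edgeR adjusted p = 0.0525), Cd36 (log2 fold change -0.97, edgeR adjusted p = 0.137) and Msr1 (log2 fold change -0.77, edgeR adjusted p = 0.21) were lower by DESeq2 alone.

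Among the C-type lectins of the Cd209 group, which bind mannose- and fucose-rich glycans, Cd209b, Cd209f and Cd209g were lower too. The other Cd209 genes of the list, Cd209a, Cd209c and Cd209d, were not stable calls. Cd209f was at 9366, 9556, 14115 and 10976 counts in tdT+ and 1044, 454, 2804 and 1172 in tdT- cells, with a log2 fold change of -3.27 ± 0.29 and adjusted p = 3.76e-26 in DESeq2 and 0.0177 in edgeR. Cd209b was at 2244, 2612, 2769 and 2412 in tdT+ and 209, 128, 302 and 555 in tdT-, and Cd209g at 1290.1, 1101, 2101 and 1589.9 in tdT+ and 300.4, 76.3, 295 and 145 in tdT-, with log2 fold changes of -3.27 ± 0.38 and -3.06 ± 0.39 and edgeR adjusted p of 0.0268 and 0.0268. In all 3 genes the F2 library had the lowest tdT- value. The Cd209 genes are close paralogs, and reads that map to several of them were not counted, so their levels are uncertain. Clec10a, a galactose-type lectin, was 2.74-fold lower (adjusted p = 2.82e-18 in DESeq2 and 0.0177 in edgeR), and Clec4n, which encodes Dectin-2 and binds fungal mannans, 2.76-fold lower (adjusted p = 1.16e-14 in DESeq2 and 0.0255 in edgeR). Of 29 lectin genes tested, 7 were lower and 3 higher by DESeq2, 5 and 0 of them stable. Mrc1 was lower by DESeq2 alone (log2 fold change -1.56, edgeR adjusted p = 0.063).

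Further deficits concerned uptake of dying cells, secreted matrix and lipid mediators. Timd4, a phosphatidylserine receptor, was at 3465, 5865, 6266 and 7368 in tdT+ and 288, 302, 1071 and 226 in tdT- cells, with a log2 fold change of -3.87 ± 0.37 and adjusted p = 9.41e-23 in DESeq2 and 0.0215 in edgeR. M1 was the highest tdT- library for Timd4, and the fractions did not overlap. Gas6, the bridge between phosphatidylserine and the TAM receptors, was 1.87-fold lower (from 35724 ± 2621 to 19252 ± 3008, means ± SD of 4 libraries as in all such pairs below, adjusted p = 2.75e-11 in DESeq2 and 0.0479 in edgeR). In the list of TAM receptors and uptake genes 5 of 26 were higher and 3 lower by DESeq2, and its median was 0.06. Ecm1, a secreted glycoprotein of the extracellular matrix, was at 2769, 3111, 2952 and 2506 in tdT+ and 136, 346, 329 and 275 in tdT-, a log2 fold change of -3.46 ± 0.30 with adjusted p = 2.29e-28 in DESeq2 and 0.00834 in edgeR. Fcna (ficolin A), a secreted lectin that can start the lectin pathway of complement, was at 16475, 15365, 13571 and 11046 in tdT+ and 2132, 1805, 2272 and 1378 in tdT- cells (log2 fold change -2.91 ± 0.13, adjusted p = 9.64e-102 in DESeq2 and 0.00165 in edgeR). Exons of Fcna overlap those of Fcnaos on the other strand, and the counts were made without strand.

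Pla2g2d, a secreted phospholipase A2, was at 6693, 8651, 9503 and 15069.7 in tdT+ and 1331, 1528, 1169.7 and 2878 in tdT- libraries (log2 fold change -2.56 ± 0.17, adjusted p = 2.07e-50 in DESeq2 and 0.00485 in edgeR). M2 had the highest value of Pla2g2d in both fractions. Pla2g7, which degrades platelet-activating factor, was 2.95-fold lower (adjusted p = 4.64e-23 in DESeq2 and 0.0142 in edgeR). The eicosanoid list counted 6 lower and 1 higher among 25 by DESeq2, among them the prostaglandin D synthase Ptgds (log2 fold change -0.72, edgeR adjusted p = 0.134) and the 5-lipoxygenase gene Alox5 (log2 fold change -0.68, edgeR adjusted p = 0.187). Hgsnat, a lysosomal enzyme of heparan sulfate breakdown that was in no list, was at 30909, 36967, 35825 and 38786 in tdT+ and 6121, 4324, 5355 and 8542 in tdT- (log2 fold change -2.59 ± 0.16, adjusted p = 2.97e-54 in DESeq2 and 0.00636 in edgeR).

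**Figure D2:**
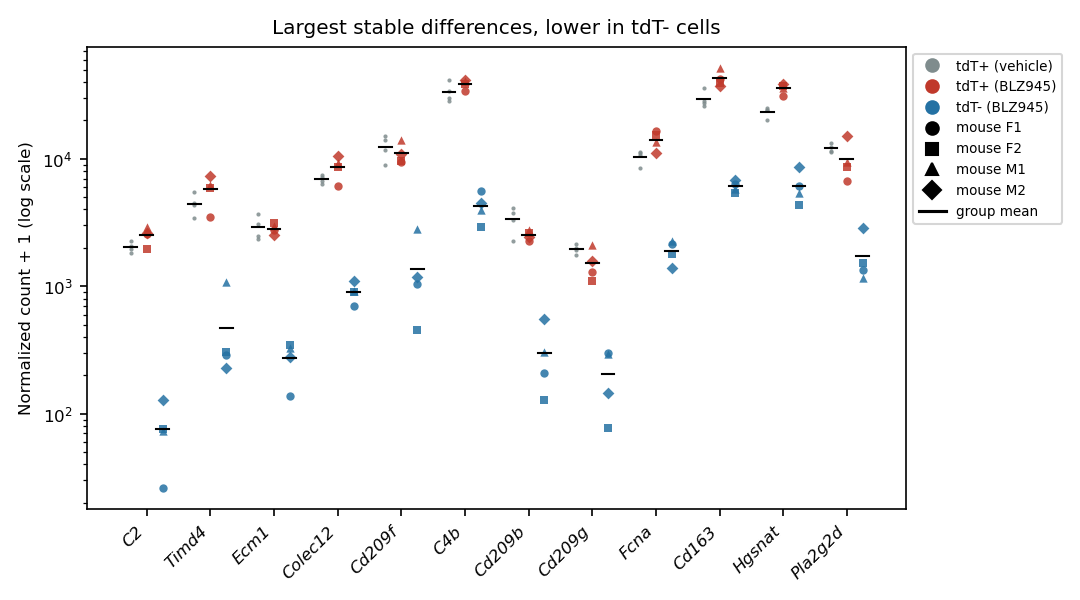
Normalized counts plus 1 (log scale) of the 12 genes with the largest stable deficits in tdT- cells, for vehicle tdT+ (gray), BLZ945 tdT+ (red) and BLZ945 tdT- libraries (blue), with group means as bars and a marker shape per BLZ945 mouse. Every blue point lies below every red point of its gene, and the vehicle means lie closer to the red than to the blue means.

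Genes of MHC class II antigen presentation were higher in tdT- cells, with none lower. Class II molecules present peptides from engulfed proteins to CD4+ T cells. Cd74, the invariant chain, guards the binding groove during transport, and H2-DM exchanges its remnant for a peptide in the endosome. All 15 tested genes of the list had a positive fold change, 10 were higher by DESeq2, 0 lower, and 7 were stable. The median log2 fold change was 1.34, and without F2 it was 1.41. H2-Ab1, the beta chain of I-A, was at 74510.2, 99713, 53093 and 65976 counts in tdT+ and 227555, 204964, 147597 and 224301 in tdT- cells, a 2.77-fold difference with adjusted p = 1.25e-29 in DESeq2 and 0.0142 in edgeR. H2-Aa, its alpha chain, was at 55136, 67822, 40161 and 49853 in tdT+ and 160395, 147126, 93254 and 141718 in tdT- (log2 fold change 1.34 ± 0.10, adjusted p = 2.04e-38 in DESeq2 and 0.0113 in edgeR). H2-Eb1, the beta chain of I-E, was at 47195, 58899, 30618 and 38525 in tdT+ and 146874, 127093, 81444 and 123556 in tdT- (log2 fold change 1.46 ± 0.11, adjusted p = 4.07e-35 in DESeq2 and 0.012 in edgeR). In all 3 chain genes M1 was the lowest mouse in both fractions, and its tdT- library still exceeded the highest tdT+ library.

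Among the loading genes, H2-DMb1 was at 5839, 6597, 4889 and 6895 counts in tdT+ and 14320.3, 13286, 10808 and 14062 in tdT- cells (log2 fold change 1.12 ± 0.10, adjusted p = 1.14e-23 in DESeq2 and 0.0159 in edgeR). H2-DMa was 2.06-fold higher and Cd74 2.55-fold higher, with edgeR adjusted p of 0.0272 and 0.0142. Exons of H2-DMa overlap those of Brd2. H2-Ob, a chain of the H2-O inhibitor of H2-DM, had the largest fold of the stable members, from 222 ± 65.1 to 1035 ± 372 (log2 fold change 2.19 ± 0.33, adjusted p = 4.75e-09 in DESeq2 and 0.043 in edgeR). H2-Oa (log2 fold change 2.38, edgeR adjusted p = 0.201), H2-DMb2 (log2 fold change 2.62, edgeR adjusted p = 0.224) and the protease Ctss, which trims Cd74 (log2 fold change 0.73, edgeR adjusted p = 0.164), were higher by DESeq2 alone. The vehicle libraries held 49078 to 80286 counts of H2-Ab1 and 29496 to 47306 of H2-Eb1, overlapping the tdT+ libraries and below every tdT- library. Dendritic cells are also rich in class II. Their 9 markers, 7 of them tested, summed to 295 to 454 TPM in tdT+ and 589.6 to 859 in tdT- cells. Of the tested ones, 2 were higher and 1 lower by DESeq2. Siglech, which is also on the microglia list, is among the higher ones. The part of dendritic cells in the class II result was not tested.

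Class II genes are switched on together through paired promoter boxes, an X box bound by RFX factors and, downstream, a Y box bound by NF-Y, onto which the coactivator CIITA is recruited. The 120 bases before the transcription start are shown for the 4 stable class II genes whose RefSeq promoter window (GRCm38.p6, 250 bases before to 50 after the start) held both boxes, 5′ to 3′ on the strand of the gene, with the Y box core TGATTGG and the X box letters CTNGNAAC in capitals:
H2-Aa (chr17:34287824-34287943, minus strand): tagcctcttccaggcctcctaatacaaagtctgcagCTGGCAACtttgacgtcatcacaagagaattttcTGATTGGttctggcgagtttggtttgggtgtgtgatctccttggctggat
H2-Eb1 (chr17:34305747-34305866, plus strand): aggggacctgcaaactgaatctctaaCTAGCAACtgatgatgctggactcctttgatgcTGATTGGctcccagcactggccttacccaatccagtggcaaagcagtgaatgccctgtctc
H2-DMb1 (chr17:34153071-34153190, plus strand): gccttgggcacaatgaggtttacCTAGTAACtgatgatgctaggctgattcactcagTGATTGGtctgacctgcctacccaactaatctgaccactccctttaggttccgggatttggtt
H2-Ob (chr17:34238785-34238904, plus strand): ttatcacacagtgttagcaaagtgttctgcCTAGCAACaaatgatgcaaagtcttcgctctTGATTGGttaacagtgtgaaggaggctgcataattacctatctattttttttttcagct

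Of the 7 stable genes of the list, 5 matched a window by symbol, and 4 of these held both boxes. The gap from the end of the X letters to the Y core was 26 bases in H2-Aa, 25 in H2-Eb1, 26 in H2-DMb1 and 23 in H2-Ob. On either strand, TGATTGG occurs in 7.82% and CTNGNAAC in 13.2% of the 32851 windows, and the pair in this order with at most 40 bases between them in 0.0944%. The X letters were written after these windows had been read, and no window for H2-DMa held either box. A match of letters is a description of the sequence, and factor binding was not measured.

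No class I gene was a stable call. Of 23 tested, 2 were higher by DESeq2, the immunoproteasome genes Psmb8 (log2 fold change 0.37, edgeR adjusted p = 0.297) and Psme2 (log2 fold change 0.58, edgeR adjusted p = 0.105), and none was stable. Summed levels overlapped, at 32722 to 37599.6 TPM in tdT+ and 31885 to 37608 in tdT- cells. Of 21 costimulatory and checkpoint genes, 5 were higher by DESeq2 and 0 stable. They were the SLAM family members Slamf7 (log2 fold change 1.48, edgeR adjusted p = 0.0725), Slamf8 (log2 fold change 1.42, edgeR adjusted p = 0.0936) and Slamf9 (log2 fold change 1.23, edgeR adjusted p = 0.0553), the checkpoint ligand Vsir (log2 fold change 0.58, edgeR adjusted p = 0.241) and Lgals9 (log2 fold change 0.39, edgeR adjusted p = 0.281).

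Several genes known from blood monocytes were higher in tdT- cells. Of 32 tested, 14 were higher and 1 lower by DESeq2, and 6 were stable, all higher. The list's median log2 fold change was 2.01 and 1.85 without F2. Ccr2, the receptor through which monocytes leave the bone marrow and enter tissue, was at 1172, 1981, 847 and 856 counts in tdT+ and 6288, 12013, 5226 and 3076 in tdT- cells, a 5.18-fold difference with adjusted p = 5.11e-32 in DESeq2 and 0.00783 in edgeR. The vehicle libraries held 1476 to 3852, so the lowest tdT- library was below the highest vehicle library. Lsp1, an actin-binding protein of leukocytes, was at 1003, 782, 692 and 541 in tdT+ and 5037, 6661, 3780.1 and 3649.9 in tdT- (log2 fold change 2.65 ± 0.20, adjusted p = 1.52e-35 in DESeq2 and 0.00636 in edgeR). Cytip, a scaffold of leukocyte integrin signalling, was at 165, 248, 59.5 and 72.4 in tdT+ and 1311, 1330.3, 466 and 333 in tdT- (log2 fold change 2.65 ± 0.36, adjusted p = 5.47e-11 in DESeq2 and 0.0391 in edgeR). Cd52, a small glycoprotein of leukocytes, and Fxyd5, a regulator of the sodium pump, were 2.29-fold and 2.64-fold higher in tdT- cells, with edgeR adjusted p of 0.0125 and 0.0125.

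All 6 stable monocyte genes had their highest tdT- value in F2, the library that also held the neutrophil markers, and that library's circulating monocyte markers summed to 2784 TPM against 6.17 to 57 in the other 3. The part of these other cells in the monocyte gene results was not tested. Without F2, 15 genes of the list were higher and 3 lower by DESeq2. Without F2 Ccr2 had a log2 fold change of 2.29 (adjusted p = 1.82e-28 in DESeq2) and Lsp1 one of 2.50 (adjusted p = 1.34e-51). Among genes chosen after their values were seen, the aspartic protease Napsa was at 0, 18.4, 0 and 0 counts in tdT+ and 712, 1746, 647 and 527 in tdT- cells and passed both tests (adjusted p = 6.33e-17 in DESeq2 and 0.0388 in edgeR), but its fold change moved by over 1.5 times between the fits that left out a mouse. In all, 8 of 989 DESeq2 calls, and 0 of the stable calls, had group means in the opposite order to the fitted fold change.

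S100 proteins and annexins bind calcium, and their list also held other genes, among them Lgals3 and Tmsb10. Of 27 genes of that list, 8 were higher and 2 lower by DESeq2, and 3 were stable. Of these 3, S100a6 alone is an S100 protein or annexin. S100a6 was at 148, 138, 17.4 and 43 counts in tdT+ and 745, 1837, 299.5 and 334 in tdT- cells (log2 fold change 3.26 ± 0.47, adjusted p = 6.5e-10 in DESeq2 and 0.0479 in edgeR). Lgals3 (galectin-3, a carbohydrate-binding protein of activated macrophages) was at 333, 709.7, 254 and 382 in tdT+ and 3277, 3345, 1103 and 1053 in tdT- (log2 fold change 2.27 ± 0.35, adjusted p = 1.43e-08 in DESeq2 and 0.0496 in edgeR). For Lgals3 the tdT- libraries of F1 and F2 lay above those of M1 and M2. Tmsb10, an actin-sequestering peptide, was at 303, 439.6, 209 and 206 in tdT+ and 1431, 2559.9, 1075 and 1072 in tdT- (log2 fold change 2.38 ± 0.24, adjusted p = 5.77e-20 in DESeq2 and 0.0125 in edgeR). Anxa1, S100a10, S100a11 and Anxa2 were higher by DESeq2 alone, with edgeR adjusted p of 0.331, 0.206, 0.231 and 0.275. Most Anxa1 counts of tdT- cells came from F2, 14545 against 322 to 651 in the other libraries.

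Tetraspanins organize receptors and integrins in the cell membrane. Of 22 tested, 7 were higher by DESeq2 and 0 lower, and 3 were stable. Tspan32, a tetraspanin of blood cells, had the largest stable fold upward, 85.6, 72.8, 86.1 and 30.4 in tdT+ and 1267, 1234, 972 and 526 in tdT- libraries (14.8-fold, adjusted p = 5.01e-27 in DESeq2 and 0.0113 in edgeR). Cd9 was at 3903, 5141, 3312 and 3458 in tdT+ and 15974, 17699, 30549.5 and 22852 in tdT- (log2 fold change 2.43 ± 0.23, adjusted p = 7.77e-24 in DESeq2 and 0.019 in edgeR), and Tspan13 at 1061, 789, 1055 and 760.4 in tdT+ and 2528, 2472, 4348 and 3846 in tdT- (log2 fold change 1.82 ± 0.25, adjusted p = 5.88e-11 in DESeq2 and 0.0272 in edgeR). Tspan32 was highest in F1 and F2, whereas Cd9 and Tspan13 were highest in M1 and M2.

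**Figure D3:**
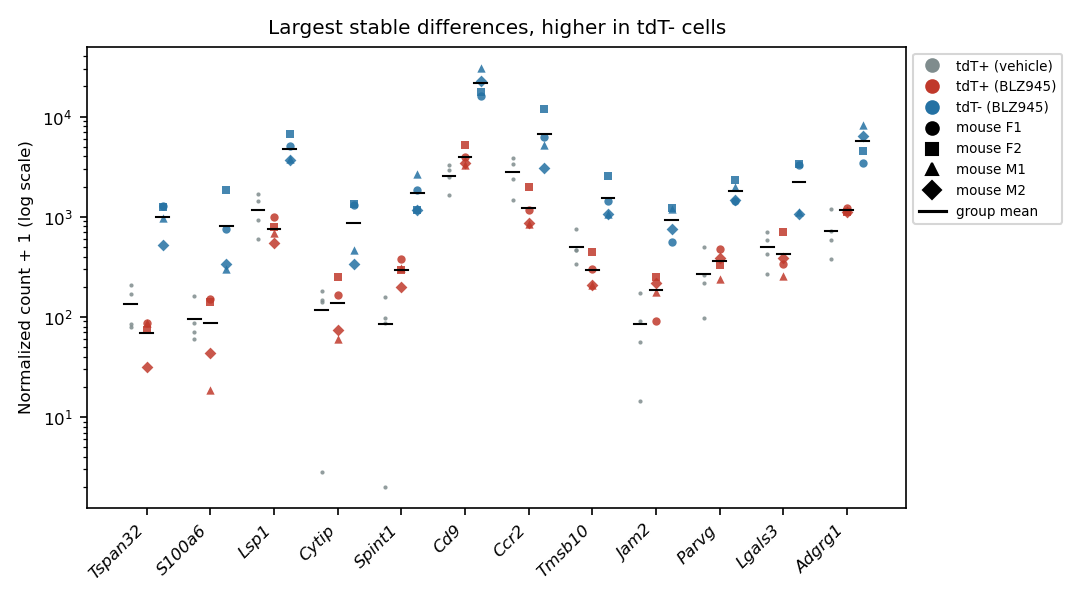
Normalized counts plus 1 (log scale) of the 12 genes with the largest stable gains in tdT- cells, for vehicle tdT+ (gray), BLZ945 tdT+ (red) and BLZ945 tdT- libraries (blue), with group means as bars and a marker shape per BLZ945 mouse. Every blue point lies above every red point of its gene, and for Tspan32, S100a6, Lsp1, Cytip, Ccr2, Tmsb10 and Lgals3 the blue points of F1 and F2 lie above those of M1 and M2.

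Several genes that are high in microglia, the macrophages of the brain parenchyma, were higher in tdT- cells as well. Of 31 genes of the microglia list, 18 were higher and 0 lower by DESeq2, 5 were stable, and the median log2 fold change was 1.16. Tmem119, a membrane protein used to tell microglia from other macrophages, was at 6302, 7892, 6871 and 4668 counts in tdT+ and 20749, 19938, 43862 and 28737 in tdT- cells (log2 fold change 2.09 ± 0.23, adjusted p = 1.08e-17 in DESeq2 and 0.0313 in edgeR). Sparc, a secreted matrix-binding protein, was at 9004, 5891, 6553 and 6496 in tdT+ and 20037, 21691, 52182 and 33804 in tdT- (log2 fold change 2.10 ± 0.25, adjusted p = 1.58e-14 in DESeq2 and 0.0475 in edgeR). Olfml3, a secreted olfactomedin protein, was at 7910.0, 9015, 5644 and 7135 in tdT+ and 19472, 21314, 32351 and 24696 in tdT- (log2 fold change 1.71 ± 0.21, adjusted p = 1.15e-13 in DESeq2 and 0.043 in edgeR). Slc2a5, the fructose transporter GLUT5, was at 1163, 1264, 1311 and 1199.8 in tdT+ and 3904, 3728, 9824 and 7208 in tdT- (log2 fold change 2.20 ± 0.27, adjusted p = 4e-14 in DESeq2 and 0.0271 in edgeR). The fifth stable gene was Golm1, a Golgi membrane protein (log2 fold change 1.29, edgeR adjusted p = 0.0491), whose exons overlap those of Naa35. Called by DESeq2 alone were the purine receptor P2ry12 (log2 fold change 1.47, edgeR adjusted p = 0.0553), the lectin Siglech (log2 fold change 1.44, edgeR adjusted p = 0.0683) and the transcription factor Sall1 (log2 fold change 2.28, edgeR adjusted p = 0.067). Fcrls, a further microglia marker, was not called, with a log2 fold change of -0.28 ± 0.12 and an adjusted p of 0.117 in DESeq2.

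Microglia genes were present in tdT+ cells too, where Tmem119 averaged 6433 counts, and in the vehicle cells, at 2373 to 5534. All 5 stable microglia genes had their highest tdT- value in M1, and 19 of the 42 stable genes higher in tdT- cells were highest there. The median difference within a mouse over the stable microglia genes was 2.67 in M1 and 2.38 in M2 on the log2 scale, and 1.30 and 1.34 in F1 and F2. Over the stable monocyte genes it was 2.32 in F1, 2.51 in F2, 2.54 in M1 and 2.02 in M2. The summed microglia markers of the tdT- libraries followed the order M1, M2, F1, F2, from 14714 down to 8075 TPM. The part of microglia in these results was not tested, nor was the difference between mice.

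Outside the class II, monocyte and microglia lists, 24 stable genes were higher in tdT- cells, of which 13 were highest in M1 and 6 in F2. All 5 stable microglia genes were also highest in M1. The lists need not hold every gene of a cell type, and the part of microglia or monocytes in these 24 genes was not tested. Adgrg1, an adhesion G protein-coupled receptor, was at 1228, 1123, 1165 and 1124 counts in tdT+ and 3403, 4553, 8171 and 6429.6 in tdT- cells (log2 fold change 2.20 ± 0.25, adjusted p = 1.8e-15 in DESeq2 and 0.0215 in edgeR). Selplg, the selectin ligand PSGL-1, was at 10767, 9779, 9369 and 9803 in tdT+ and 27076, 28531, 59075 and 37694 in tdT- (log2 fold change 1.86 ± 0.20, adjusted p = 1.09e-17 in DESeq2 and 0.0291 in edgeR), and the junctional adhesion molecule F11r at 3979.8, 4637, 3049.6 and 3940.2 in tdT+ and 11057, 10348, 18969.9 and 15702 in tdT- (log2 fold change 1.81 ± 0.24, adjusted p = 3.47e-12 in DESeq2 and 0.0459 in edgeR). Jam2, of the same family, was at 89.3, 251, 176 and 219 in tdT+ and 552, 1215, 1189 and 753 in tdT- (log2 fold change 2.36 ± 0.35, adjusted p = 4.33e-09 in DESeq2 and 0.0459 in edgeR). Parvg, an adaptor of integrin-linked kinase in leukocytes, was at 476, 329.9, 240.0 and 390.1 in tdT+ and 1418, 2326, 1996 and 1469.7 in tdT- (log2 fold change 2.34 ± 0.35, adjusted p = 6.4e-09 in DESeq2 and 0.0444 in edgeR). Spint1, an inhibitor of serine proteases, was at 374, 291, 304 and 197 in tdT+ and 1865, 1169, 2659 and 1154 in tdT- (log2 fold change 2.50 ± 0.30, adjusted p = 4.38e-14 in DESeq2 and 0.019 in edgeR).

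Among the 27 integrin and adhesion genes, 8 were higher and 2 lower by DESeq2. The stable deficit was Vcam1, the ligand of the integrin VLA-4, at 31114, 19466, 28153 and 21239.6 in tdT+ and 8455, 5278, 6381 and 7952 in tdT- cells (log2 fold change -1.83 ± 0.14, adjusted p = 1.09e-36 in DESeq2 and 0.00834 in edgeR). The vehicle libraries held 11907 to 19149.5 counts of Vcam1, below the tdT+ mean of 24993 and above every tdT- library. In the protease list, Serpine2 was higher by DESeq2 alone, at 2077, 1611, 1053 and 1119 in tdT+ and 5752, 7041, 16158 and 11209.7 in tdT- (log2 fold change 2.71, edgeR adjusted p = 0.063), and the metalloprotease genes split, with Mmp14 higher (log2 fold change 1.09, edgeR adjusted p = 0.181) and Mmp9 lower (log2 fold change -0.71, edgeR adjusted p = 0.093).

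**Figure D4:**
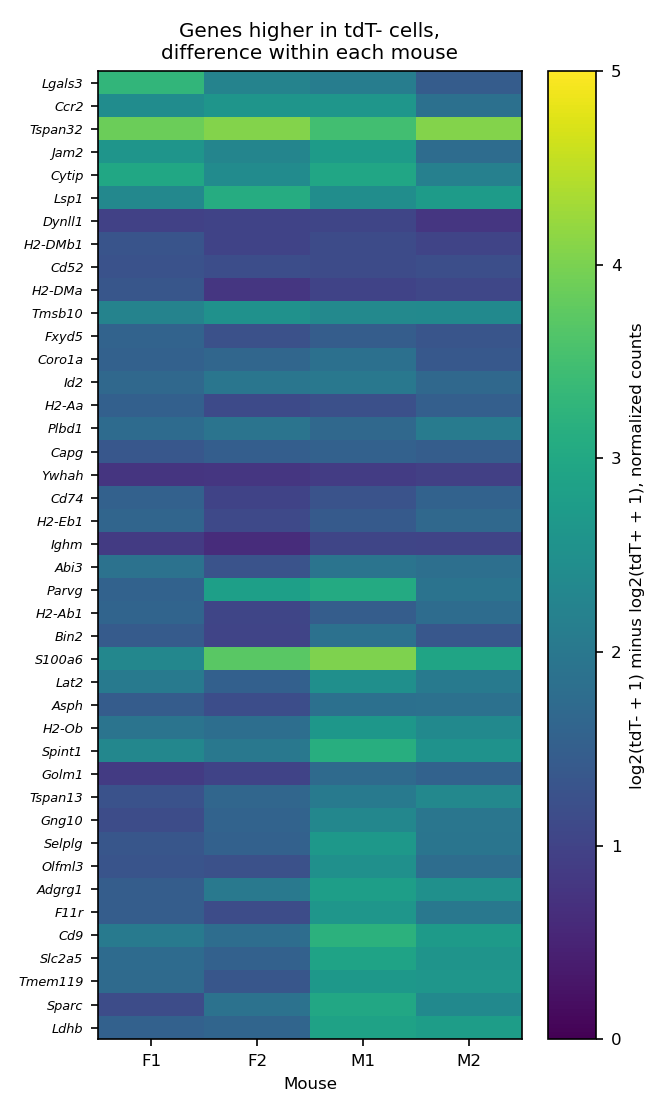
Difference between tdT- and tdT+ cells within each mouse, log2(normalized count + 1), for the 42 stable genes higher in tdT- cells (rows, ordered by the difference between M and F mice). Microglia genes such as Tmem119, Sparc and Slc2a5 are at the bottom with their largest differences in M1 and M2, and Lgals3, Ccr2 and Cytip are at the top.

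Receptors for antibodies, chemokines and microbial products were called in both directions. The neonatal Fc receptor Fcgrt was at 23528, 26644, 27118 and 26565 counts in tdT+ and 12310.1, 9689, 13609 and 13947 in tdT- cells (log2 fold change -1.08 ± 0.12, adjusted p = 4.73e-16 in DESeq2 and 0.0268 in edgeR), and the inhibitory receptor Fcgr2b at 39962, 39049.8, 38855 and 45140 in tdT+ and 25350.4, 19625, 23168 and 30159 in tdT- (log2 fold change -0.75 ± 0.10, adjusted p = 3.48e-12 in DESeq2 and 0.0479 in edgeR). Fcgr4, an activating receptor, was higher by DESeq2 alone (log2 fold change 1.01, edgeR adjusted p = 0.175). Tlr4, the sensor of lipopolysaccharide, was 1.93-fold lower, at 7326, 6358, 7249 and 8217 in tdT+ and 3601, 3192, 3883 and 4516 in tdT- (adjusted p = 5.3e-15 in DESeq2 and 0.0247 in edgeR). Of 41 sensors tested, 4 were higher and 3 lower by DESeq2 (3.2% and 4.61% over all genes), including Tlr5 (log2 fold change -1.32, edgeR adjusted p = 0.108) and Tlr8 (log2 fold change -1.03, edgeR adjusted p = 0.0581) among the lower. The eotaxin Ccl24 was at 3325, 3546, 5054 and 3577 in tdT+ and 1145, 806, 2063 and 1054 in tdT- (log2 fold change -1.68 ± 0.21, adjusted p = 2.16e-13 in DESeq2 and 0.019 in edgeR), and every tdT+ value lay below the vehicle range of 5579.7 to 6241. Of 21 chemoattractant receptors, 4 were higher and 6 lower by DESeq2, with Ccr2 the one stable call. Cx3cr1 (log2 fold change 0.84, edgeR adjusted p = 0.187) was higher, and Ccr1 (log2 fold change -0.72, edgeR adjusted p = 0.0876) and Fpr1 (log2 fold change -1.51, edgeR adjusted p = 0.0609) lower, by DESeq2 alone.

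Among 33 Siglec, Cd300 and paired receptors, 11 were higher and 2 lower by DESeq2. Cd200r1, an inhibitory receptor for CD200, was the stable one, at 2762, 2319.8, 4313 and 3078 in tdT+ and 1108, 926, 1300.5 and 945 in tdT- cells (log2 fold change -1.52 ± 0.19, adjusted p = 4.12e-13 in DESeq2 and 0.019 in edgeR). Siglec1 (sialoadhesin) was lower by DESeq2 alone (log2 fold change -1.80, edgeR adjusted p = 0.0525). In the Ms4a family 6 of 10 were lower and 1 higher by DESeq2, and Ms4a4a was stable at 13605, 8888, 11232 and 9204 in tdT+ and 6125, 3682, 5412 and 6022 in tdT- (log2 fold change -1.02 ± 0.15, adjusted p = 9.2e-10 in DESeq2 and 0.043 in edgeR). The ATP-gated channel P2rx7 was 2.14-fold lower, at 10779, 10462, 10152 and 10469.8 in tdT+ and 5182, 3527, 5514 and 5662 in tdT- (adjusted p = 6.66e-10 in DESeq2 and 0.043 in edgeR). Ms4a genes are paralogs, which makes their single levels uncertain.

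The erythropoietin receptor Epor was at 1717, 1417, 2049.8 and 1859 in tdT+ and 693, 549.8, 506 and 622 in tdT- (log2 fold change -1.57 ± 0.25, adjusted p = 6.27e-08 in DESeq2 and 0.043 in edgeR), one of 3 lower and 4 higher calls by DESeq2 among 37. Csf1r, the target of BLZ945, was lower by DESeq2 alone, from 169217 ± 4340.3 to 141088 ± 14310.3 (log2 fold change -0.27, edgeR adjusted p = 0.383). Lrp6, a Wnt co-receptor, was at 5192, 5611, 5009 and 4846 in tdT+ and 2919.8, 1635, 1412 and 2058 in tdT- (log2 fold change -1.42 ± 0.22, adjusted p = 2.66e-08 in DESeq2 and 0.0479 in edgeR), and Notch2 (log2 fold change -1.38, edgeR adjusted p = 0.165) was lower by DESeq2 alone. The TGF-beta receptor genes were called in opposite directions by DESeq2, Tgfbr1 higher (log2 fold change 0.91, edgeR adjusted p = 0.109) and Tgfbr2 lower (log2 fold change -0.60, edgeR adjusted p = 0.156), with 0 stable calls in that list. Of 27 guidance genes, 8 were lower and 0 higher by DESeq2, none stable, and the list had a median of -1.32. Nrp1, a co-receptor of semaphorins and VEGF, had the highest level per length of these, from 19102 ± 1413 to 13447 ± 2087 (log2 fold change -0.52, edgeR adjusted p = 0.192). In further lists the DESeq2 calls were mixed, as in the chemokine ligands (1 higher and 5 lower of 25), matrix glycoproteins (3 higher and 4 lower of 16), growth factors (4 higher and 5 lower of 25) and purinergic genes (3 higher and 4 lower of 18).

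Of the 73 myeloid transcription factors, 5 were higher and 4 lower by DESeq2 (3.2% and 4.61% over all genes), and without F2 9 higher and 15 lower. Id2, an inhibitor of E proteins, was the one stable call among 73 myeloid factors, at 378, 559, 572 and 540.1 counts in tdT+ and 1214, 2171, 2301 and 1736 in tdT- cells (log2 fold change 1.83 ± 0.22, adjusted p = 5.23e-14 in DESeq2 and 0.0183 in edgeR). By DESeq2 alone, Maf was lower (log2 fold change -0.67, edgeR adjusted p = 0.104) and Irf5 was higher (log2 fold change 0.51, edgeR adjusted p = 0.179). In the 34 immediate early genes, 2 were higher and 2 lower by DESeq2, none stable. In the 14 Klf and Nr4a genes, Nr4a1 was higher (log2 fold change 5.07, edgeR adjusted p = 0.347) and Klf10 lower (log2 fold change -1.26, edgeR adjusted p = 0.0838) by DESeq2 alone. None of the 21 clock genes was called with all 4 mice, and 1 higher and 2 lower without F2. Among them, the kinase gene Csnk1d had values from 2876 ± 469 to 2423 ± 397 (adjusted p = 0.541 in DESeq2).

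The stable call among iron genes was Cd163. Of 31 tested, 8 were lower by DESeq2 and 0 higher, and without F2 2 higher and 9 lower. The DESeq2-only calls cover iron export (Slc40a1, ferroportin, log2 fold change -1.33, edgeR adjusted p = 0.0609), oxidation (Cp, ceruloplasmin, log2 fold change -1.13, edgeR adjusted p = 0.086), transport (Trf, transferrin, log2 fold change -0.66, edgeR adjusted p = 0.0876), haem breakdown (Blvrb, log2 fold change -0.56, edgeR adjusted p = 0.18) and ferritin turnover (Ncoa4, log2 fold change -0.48, edgeR adjusted p = 0.226). Slc40a1 was at 14161, 19245, 15349 and 16789.7 counts in tdT+ and 4657, 5721, 10471 and 6444 in tdT- cells, with no overlap. Of the 39 oxidant and antioxidant genes, 3 were higher and 3 lower by DESeq2. The secreted glutathione peroxidase Gpx3 was stable, at 7889.8, 8511, 5663 and 6049 in tdT+ and 1799, 1669, 2116 and 1587 in tdT- (log2 fold change -1.96 ± 0.20, adjusted p = 5.45e-21 in DESeq2 and 0.0125 in edgeR). The cytoplasmic peroxidase Gpx1 was higher by DESeq2 alone (log2 fold change 0.75, edgeR adjusted p = 0.078), as was the NADPH oxidase subunit Ncf1 (log2 fold change 0.53, edgeR adjusted p = 0.149).

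Of the 41 glycolysis and pentose phosphate genes tested, 4 were higher by DESeq2 and 0 lower, and 12 did not overlap between the fractions with tdT- cells above. Over all genes, 4.56% did not overlap in this direction. Without F2, 7 higher and 2 lower were called. Beside Slc2a5 the stable gene was Ldhb, a lactate dehydrogenase subunit, at 1206, 1086, 992 and 817 in tdT+ and 3524, 3367, 7343 and 5666 in tdT- (log2 fold change 2.21 ± 0.29, adjusted p = 1.18e-11 in DESeq2 and 0.0397 in edgeR). Among 57 lipid handling genes, 11 were lower and 6 higher by DESeq2, with the cholesterol exporter Abca1 (log2 fold change -0.66, edgeR adjusted p = 0.0638) and Apoe, which carries lipids between cells (log2 fold change -0.46, edgeR adjusted p = 0.242), among the lower and lipoprotein lipase (Lpl, log2 fold change 2.39, edgeR adjusted p = 0.151) among the higher. None of the 26 cholesterol synthesis genes was called with all 4 mice, and 1 higher and 1 lower without F2. The highest of these were Ebp, from 2049.8 ± 130.3 to 2796 ± 583 (adjusted p = 0.197 in DESeq2), and Msmo1, from 3597 ± 1264 to 3328 ± 1157 (adjusted p = 0.826). Of 81 lysosomal genes, 7 were higher and 9 lower by DESeq2 (3.2% and 4.61% over all genes). Plbd1, a phospholipase-like lysosomal protein, was stable at 1524, 1326, 1373 and 977 in tdT+ and 5115, 5061, 4449 and 4154 in tdT- (log2 fold change 1.86 ± 0.16, adjusted p = 1.55e-28 in DESeq2 and 0.00783 in edgeR).

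Respiratory genes of the nuclear and mitochondrial genomes had medians of opposite sign. Of the 78 nuclear respiratory chain genes, 66 had a positive fold change with a median of 0.18, but 0 were called by DESeq2 with all 4 mice and 2 higher without F2. The most abundant per length were Cox6b1, from 4088 ± 328 to 4605 ± 128 (adjusted p = 0.485), and Cox6a1, from 4164 ± 297 to 4621 ± 395 (adjusted p = 0.648). All 10 mitochondrially encoded genes had a negative fold change, with a median of -0.45, and mt-Nd5 was lower by DESeq2 alone (log2 fold change -0.83, edgeR adjusted p = 0.207). mt-Cytb was at 24535, 24558, 23027 and 25882 in tdT+ and 19912, 26796, 18404 and 14875 in tdT- (adjusted p = 0.201 in DESeq2), and mt-Nd1 had a log2 fold change of -0.06 ± 0.12 (adjusted p = 0.87). F2 had the highest tdT- value of mt-Cytb, and without F2 8 of the 10 were lower by DESeq2. The share of counts from the mitochondrial genome was 0.448, 0.631, 0.382 and 0.324% in tdT- and 0.583, 0.515, 0.562 and 0.589% in tdT+ cells.

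Ribosomal protein genes had small positive fold changes. Of 83 tested, 81 had a positive fold change, 18 were higher by DESeq2 and 0 lower, and 0 were stable. Their median log2 fold change was 0.41, and 0.28 without F2, whose summed level of 31689 TPM compares with at most 24971 in the other tdT- and 21416 in the tdT+ libraries. Cell cycle genes had their highest summed level in F2 as well. Of 100 tested, 10 were higher and 1 lower by DESeq2, none stable, and the median of 0.91 was 0.26 without F2. Their summed level was 3053 TPM in F2, at most 1576 in the other tdT- libraries and 1069.8 to 1155 in tdT+ cells.

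Interferon-stimulated genes gave no stable call. Of 63 tested, 7 were lower and 0 higher by DESeq2, and the median was -0.30. Without F2, 3 higher and 10 lower were called. The guanylate-binding protein gene Gbp7 (log2 fold change -0.96, edgeR adjusted p = 0.0838) and the tetherin gene Bst2 (log2 fold change -0.37, edgeR adjusted p = 0.266) were among the lower. Of 37 cytokine and NF-kB feedback genes, 5 were higher and 1 lower by DESeq2, none stable. Of 62 chaperone genes 2 were called, and of 43 apoptosis genes 4. The imprinted list held 1 call among 23, the tetraspanin gene Cd81 at 24234, 27013, 27814 and 26676 in tdT+ and 42683, 39832, 84408 and 64584 in tdT- cells (adjusted p = 2.97e-08 in DESeq2 and 0.0777 in edgeR), and Gnas, the other member chosen by level, was not called (from 12106 ± 904 to 14912 ± 1741, adjusted p = 0.181 in DESeq2).

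**Figure D5:**
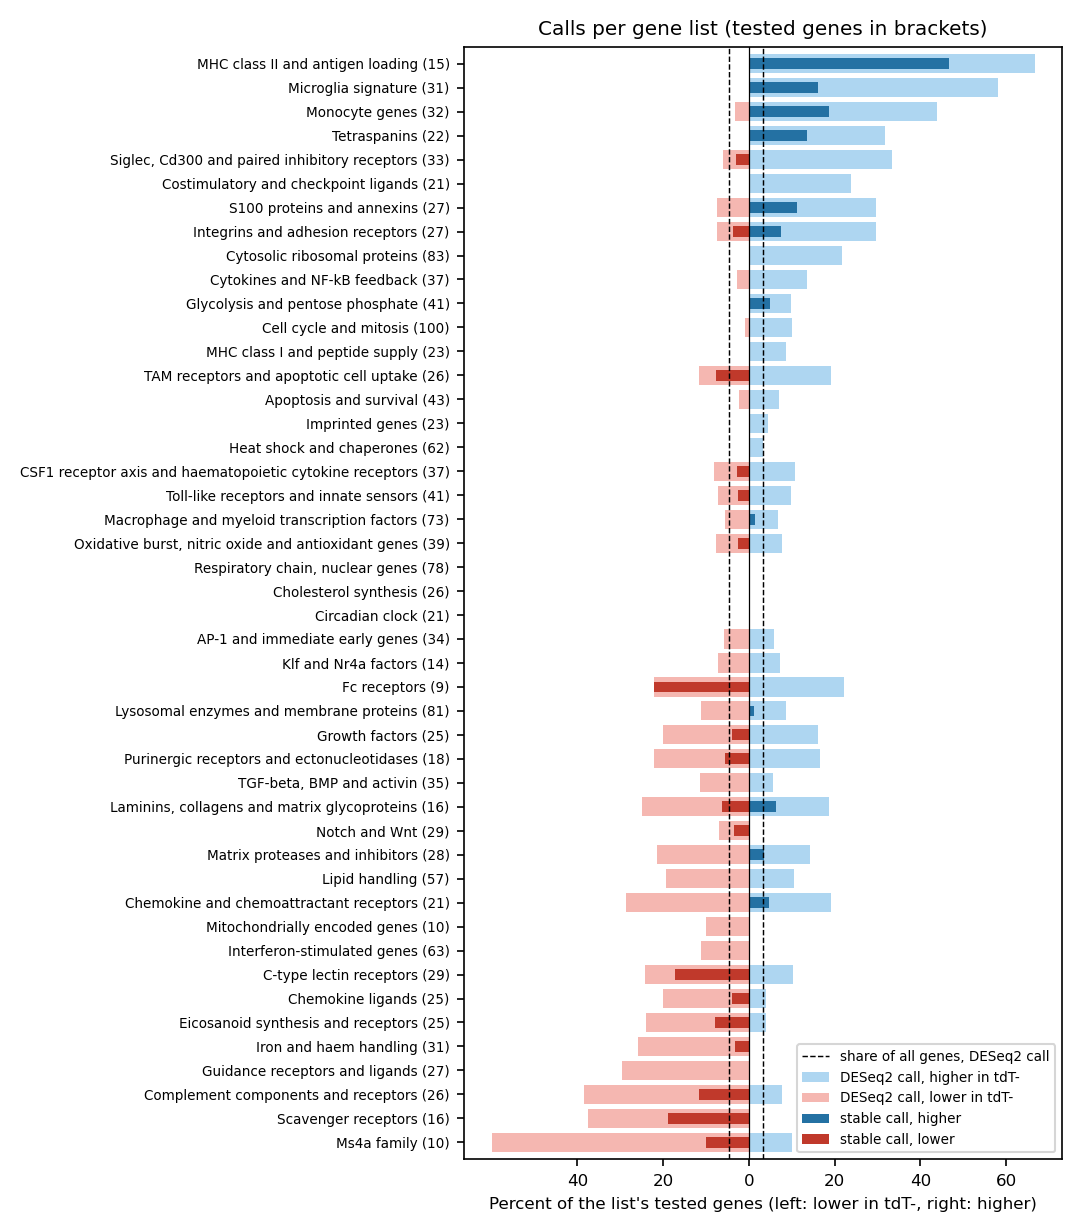
Share of the tested genes of each list (number in brackets) called by DESeq2 (light bars) and stable (dark bars), to the right when higher and to the left when lower in tdT- cells, with dashed lines at the share over all genes. Among the light bars, class II, microglia and monocyte genes have the largest shares on the right and Ms4a, complement and scavenger receptor genes on the left, whereas Fc receptors have the largest dark share on the left.

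The remaining stable calls belong to no list and were named after their values were seen, as were Golm1, H2-DMa, H2-Ob and Cd74 above. Lower in tdT- cells were the endothelin receptor Ednrb (log2 fold change -2.43, edgeR adjusted p = 0.0142), the NAD-consuming ectoenzyme Cd38 (log2 fold change -1.69, edgeR adjusted p = 0.0173), the folate receptor Folr2 (log2 fold change -1.31, edgeR adjusted p = 0.0268), the kinase gene Pomk (log2 fold change -2.09, edgeR adjusted p = 0.0391), the cytokine Tslp (log2 fold change -1.52, edgeR adjusted p = 0.0459), the ion channel Trpv4 (log2 fold change -1.32, edgeR adjusted p = 0.0479) and coagulation factor F13a1 (log2 fold change -1.04, edgeR adjusted p = 0.0388). Also lower were Sbf2, Aplp2, Pik3cg and Stom, with log2 fold changes of -1.15, -0.94, -0.92 and -0.77, and 1 predicted gene. Higher in tdT- cells were the actin regulators Coro1a (log2 fold change 1.60, edgeR adjusted p = 0.00799), Capg (log2 fold change 1.46, edgeR adjusted p = 0.0346), Abi3 (log2 fold change 1.73, edgeR adjusted p = 0.0479) and Bin2 (log2 fold change 1.42, edgeR adjusted p = 0.0271), and the signalling genes Gng10 (log2 fold change 1.76, edgeR adjusted p = 0.0261), Lat2 (log2 fold change 2.02, edgeR adjusted p = 0.0215) and Ywhah (log2 fold change 0.85, edgeR adjusted p = 0.0364). Asph, Dynll1 and the immunoglobulin heavy chain gene Ighm were also higher, with log2 fold changes of 1.59, 0.95 and 0.89. Ighm is a B cell gene. The B cell marker Pax5 was at 0 in all 8 libraries, and the whole marker list summed to 376 to 467 TPM in tdT+ and 690.0 to 819 in tdT- cells, whose part in this result was not tested. The vehicle mean lay above the tdT- mean for 41 of the 41 stable genes lower in tdT- cells and below it for 42 of the 42 higher ones. These genes were picked by the same tdT- values, which favours this order in advance, so it is a description only and no support for the calls. Exons of Pla2g7, Vcam1, Folr2, Coro1a, Abi3, Lat2, Stab1, P2ry12, Cx3cr1, Csf1r, Notch2, Irf5, Cp, Ncf1, Slamf7, Csnk1d and Cd81 overlap those of another gene, and counts made without strand cannot be told apart there.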

How the data were processed

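Per the labels and the file header, RNA of sorted cells was amplified with a SMART-Seq kit and sequenced on an Illumina instrument, and the authors deposited raw counts per gene for all 12 libraries. Reads were aligned with STAR 2.7.11a and counted with featureCounts 2.0.6 over exons by gene name (GENCODE M33 with tdTomato added), without strand and without reads that map to several places. The submitters' processing notes also name bcl2fastq 2.20 and DESeq2 1.46.0. No counts were corrected for duplicates after the many PCR cycles of the kit, so counting error is not that of independent molecules.

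Genes with at least 10 counts in at least 4 of the 12 libraries were kept. The two-sided Wald test of DESeq2 1.42.0 (R 4.3.3, median-of-ratios size factors, mouse label as a block) was run on the 8 BLZ945 libraries, with fold changes shrunken by apeglm 1.24.0 for the DEG threshold, and edgeR 4.0.16 (quasi-likelihood, TMM factors, same block) was run beside it. P-values were adjusted by Benjamini and Hochberg over all genes. The threshold was 0.05, and both tools were tested on simulated data, where DESeq2 made many more false calls than edgeR. The simulated spread between libraries was edgeR's estimate by expression level, without a mouse effect, which differs from the real data. Printed fold changes are unshrunken. The normalized counts used the size factors of all 12 libraries, and TPM was computed from counts and total exon length.

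BLZ945 libraries with the same mouse label were paired as the fractions of an animal, which is why the label is a block. Vehicle libraries that carry these labels are of other mice. Deviations from the group means correlated at 0.0146 to 0.0413 within a mouse over 9626 genes, and 4 of 4 tdT- libraries correlated best with their own mouse. One vehicle library carries 2 different mouse labels and was used as a vehicle replicate without one. The genes named were, by rule, the 12 stable DEGs with the largest shrunken fold change in each direction (mean of at least 100 normalized counts, predicted genes left out), up to 4 stable calls per direction with the smallest adjusted p in each of the 46 gene lists, and the 2 members with the highest level per length where a list had fewer than 2 calls. The comparison, the gene lists and the marker lists were chosen with earlier results of these data known. Some genes that the rule names are not reported here. Alternatives were the fit without the block, all 12 libraries, edgeR, TMM, other filters and thresholds, and leaving out each mouse. The adjusted p of DESeq2 is missing for genes it filtered on low counts.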

Additional observations from a re-analysis of the deposited data

Results flagged for a closer look

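Of 174 groups of 4 libraries examined, 9 had 1 library far from the others by Dixon's test, and chance gives about 1 in 20. The number given in brackets is the gap to the nearest library as a share of the whole range. In tdT- cells, F2 was lowest for Clec4n (0.995), highest in the number of detected genes (0.966), and highest for neutrophil (0.933) and mast cell markers (1.0). In tdT+ cells, F2 was highest for neutrophil markers (0.911), at 14.4 TPM. Also in tdT+ cells, M1 was lowest for Cox6b1 (0.898), F1 lowest for Fcgrt (0.855) and Id2 (0.861), and M2 lowest for Tspan32 (0.837).

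The number of genes with at least 10 counts was 13188 in the tdT- library of F2, against 12114 to 12150 in the other 3. For Clec4n the tdT- libraries held 5021, 2366, 5033 and 5040.2 normalized counts, all below the tdT+ libraries. For Tspan32, Fcgrt and Id2 the lone tdT+ library still lay on the same side of every tdT- library as the other 3.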

How the results depend on the processing

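The counts of calls depended on the tool. Of the 208 DEGs higher and 165 lower in tdT- cells in DESeq2 with the mouse block, edgeR with the block gave 41 and 36, and edgeR without it 87 and 80. By adjusted p alone, DESeq2 gave 405 higher and 584 lower, edgeR 44 and 42 with the replicate block and 109 and 133 without. TMM factors in DESeq2 gave 702 and 1034, and a filter at a mean of 50 normalized counts gave 690 higher. Unshrunken fold changes gave 398 lower DEGs, and a fold threshold of 1.5 gave 322. Leaving out 1 mouse in DESeq2 gave 642 (M2) to 740 (F1) genes higher and 880 (M1) to 1150 (F2) lower by adjusted p, and 242 (M2) to 306 (F1) DEGs higher and 220 (M1) to 277 (F1) lower. Leaving out 1 mouse in edgeR, an alternative chosen after seeing the data, gave 1 (F1) to 5 (F2) higher and 8 (F1), 10 (F2), 11 (M2) and 16 (M1) lower, both with and without the fold threshold. Without the replicate block DESeq2 called 772 genes in all, and with all 12 libraries 875. The genes named by rule kept direction in every alternative except mt-Nd1, which was not called in any and had a shrunken log2 fold change of -0.06 with all mice and 0.02 without M2. Of their values under the alternatives, 794 stayed on their side of the threshold, 7 passed it newly (among them Ebp without F1, without F2 and under the stricter filter, Gnas without F1 and with all 12 libraries, and mt-Cytb without F2), and 3 no longer passed, Cd81 in edgeR with the block and Cytip and S100a6 in edgeR without it. The cause was not tested. At 4 mice, with 1 library standing apart, genes with few counts give large but imprecise fold changes, and a gene without a call is not shown to be equal.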

Other observations

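DESeq2 also called 34 genes that held 0 counts in all 4 libraries of 1 fraction, 21 of them at 0 in tdT- and 13 at 0 in tdT+ cells. No fold is given for them, since a fitted fold change against 0 is no measurement. Ephb6, a receptor of the ephrin family, was at 0 in all tdT- libraries, with 240.2, 123, 410.2 and 121 normalized counts in tdT+ libraries and an edgeR adjusted p of 0.175. Bub1b, a kinase of the spindle checkpoint, was at 0 in all tdT+ libraries, with 223, 477, 0 and 421 in tdT- libraries and an edgeR adjusted p of 0.175. Mouse M1 thus held 0 counts of Bub1b in both fractions and showed no difference. These genes were chosen after their values were seen.

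The transcript of the Rosa26 locus, Gt(ROSA)26Sor, which carries the reporter insertion, was at 243, 90.3, 241 and 255 normalized counts in tdT+ and 112, 37.7, 51.7 and 42.1 in tdT- cells. The values overlapped, since F2 held less in tdT+ than F1 in tdT- cells, and within each mouse the tdT+ library was higher.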
